A study of Arabidopsis thaliana with 12 samples.

Results

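The cold-regulated (COR) genes described here are 9 Arabidopsis thaliana loci, RD29A (AT5G52310), RD29B (AT5G52300), COR15A (AT2G42540), COR15B (AT2G42530), KIN1 (AT5G15960), KIN2 (AT5G15970), COR47 (AT1G20440), ERD10 (AT1G20450) and RAB18 (AT5G66400). They were taken by locus code from the 36917 rows of a gene count table, and were selected on expression values of these same libraries, so their values in every comparison are given as a description. RNA sequencing covered 12 libraries, 3 biological replicates in each of 4 groups, and each sample pooled about 20 organs. The pistil groups (pistils and siliques, stages 12 to 16) are Ler, the wild type of ecotype Landsberg erecta, and ful-1, listed as the same ecotype. The meristem groups (inflorescence meristems dissected with buds until stage 3 to 4) are Col-0, the wild type of ecotype Columbia, and ful-7, a SALK insertion line listed as Col-0. Both mutants carry lesions in FRUITFULL (FUL), a MADS-domain transcription factor of fruit and meristem. All plants grew at 21 °C under long days, with 16 h of light, and had no treatment, so none of the groups was chilled or dried by design. Each mutant was profiled as 1 allele in 1 tissue, so allele, tissue and ecotype cannot be told apart between the mutants.

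COR genes encode hydrophilic proteins that accumulate in plants during cold and drought and are thought to protect membranes and proteins as cells lose water. In cold, CBF (also DREB1) transcription factors bind the C-repeat or dehydration-responsive element, whose core is CCGAC, and DREB2 factors bind the same element under drought and heat. Abscisic acid, the drought hormone, acts through PYR/PYL receptors and SnRK2 kinases such as OST1 on bZIP factors (ABF, AREB and ABI5), which bind elements with the core ACGTG.

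Of the 9 genes, 8 lie on the chromosomes as 4 pairs of neighbours on the same strand, with 0 annotated genes between the partners. RAB18 is the 1 gene that stands alone. Coding sequences within a pair were 95% identical for KIN1 and KIN2, 82.6% for COR15A and COR15B, 73.5% for COR47 and ERD10 and 56.2% for RD29A and RD29B. The 250 bases before the annotated start are printed for the genes whose levels differed most and for their partners, to show the elements that the pathway is known for. They are from the RefSeq TAIR10.1 assembly, at chr5:21240467-21240716 (plus strand) for RD29A, chr5:21236771-21237020 (plus) for RD29B, chr2:17712331-17712580 (minus) for COR15A, chr5:5209467-5209716 (plus) for KIN1 and chr5:5211469-5211718 (plus) for KIN2. Capitals mark CCGAC and ACGTG or their reverse complements, each read 5′ to 3′ along the gene's strand.
RD29A: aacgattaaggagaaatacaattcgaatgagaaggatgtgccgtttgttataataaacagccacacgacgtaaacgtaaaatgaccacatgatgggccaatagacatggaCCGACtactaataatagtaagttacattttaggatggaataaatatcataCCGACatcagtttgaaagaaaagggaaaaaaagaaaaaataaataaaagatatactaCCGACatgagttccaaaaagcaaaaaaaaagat
RD29B: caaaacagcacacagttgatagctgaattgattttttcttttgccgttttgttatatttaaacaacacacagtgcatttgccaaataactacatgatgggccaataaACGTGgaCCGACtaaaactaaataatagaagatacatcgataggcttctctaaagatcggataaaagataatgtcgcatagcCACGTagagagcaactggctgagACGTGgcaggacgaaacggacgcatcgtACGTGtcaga
COR15A: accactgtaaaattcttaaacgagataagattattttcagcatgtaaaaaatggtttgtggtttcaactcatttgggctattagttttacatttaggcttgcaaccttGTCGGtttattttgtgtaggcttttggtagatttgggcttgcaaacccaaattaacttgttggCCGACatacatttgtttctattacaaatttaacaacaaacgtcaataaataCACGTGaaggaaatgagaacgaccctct
KIN1: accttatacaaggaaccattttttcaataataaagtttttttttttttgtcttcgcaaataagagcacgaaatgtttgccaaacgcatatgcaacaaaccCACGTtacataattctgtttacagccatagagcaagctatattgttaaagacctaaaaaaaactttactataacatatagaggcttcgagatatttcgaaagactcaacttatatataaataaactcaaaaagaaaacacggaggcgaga
KIN2: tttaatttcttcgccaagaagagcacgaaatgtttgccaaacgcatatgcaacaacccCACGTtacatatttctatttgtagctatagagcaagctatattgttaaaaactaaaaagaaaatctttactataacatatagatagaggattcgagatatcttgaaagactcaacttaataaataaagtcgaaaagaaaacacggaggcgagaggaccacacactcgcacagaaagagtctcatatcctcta

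RD29A carried 3 matches to CCGAC and 0 to ACGTG in this window. Its neighbour RD29B carried 1 and 4. COR15A carried 2 CCGAC matches, and 2 ACGTG matches that are the strands of a single palindrome. KIN1 and KIN2 each carried 0 CCGAC matches and 1 ACGTG match, in the same sequence context, and COR47 and ERD10 carried 0 of either. In 27443 windows of the same length before protein-coding genes, counting both strands, CCGAC was present in 12% and ACGTG in 22.9%. The windows of COR15B and RAB18 lie in exons of a neighbouring gene and are not printed. A match is only a run of letters, and a window without one says nothing about more distant elements.

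Depth ranged from 13191949 to 83606724 counts per library. FUL itself stood at 101.3 ± 5.79 CPM (counts scaled to library size, with TMM factors over the 12 libraries) in Ler pistils and 6.96 ± 3.92 in ful-1 pistils, and at 119.8 ± 30.2 in Col-0 and 2.53 ± 0.803 in ful-7 meristems (SD, n = 3 each). The summed level of 7 pistil markers was 317 to 779 CPM in pistil and 48 to 64.8 CPM in meristem libraries. Not all 7 went with the sum. CRC was at 3.06 to 9.78 CPM in pistil and 7.92 to 30.6 CPM in meristem libraries. SPT differed little between the wild types, with a log2 fold change of -0.22 ± 0.13 (SE). The sum of 9 meristem markers was 56.7 to 84 CPM in pistil and 335 to 437 CPM in meristem libraries. CLV3 and WUS had 0 counts in ful-1 pistils, but CLV3 was scarce in meristems too, at 0.0447 to 0.427 CPM. Library 3 of the ful-1 pistils stood apart. It had the lowest total, its plastid share was 2.04%, whereas the other pistil libraries had 0.118% to 0.393%, and its rank correlation with them across genes was at most 0.906, against up to 0.988 among them. Omitting it moved the common biological coefficient of variation in pistils from 0.413 to 0.157, so pistil fold changes of the COR genes are given both ways. Library 3 of the Col-0 meristems also departs from its group in the COR genes, as described for each gene, and meristem values of these genes are likewise given with and without it. Libraries are numbered by column order in the table, and nothing in the labels says which cultures or trays they came from, so errors measure only the spread between these samples.

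RD29A, a hydrophilic protein gene known to respond to cold, drought and abscisic acid, had the largest fold difference of the 9 in pistils. The Ler libraries stood at 6.999, 11.5 and 3.76 CPM and the ful-1 libraries at 40.7, 78.1 and 85.0 CPM. Every ful-1 library lay above every Ler library, and the ratio of the group means was 9.18. The fitted log2 fold change was 3.28 ± 0.54 (SE) over 6 libraries and 2.97 ± 0.48 without ful-1 library 3. In meristems the order was the other way round. Col-0 libraries stood at 31.7, 37.5 and 99.9 CPM and ful-7 libraries at 22.6, 27.7 and 17.8 CPM. The ful-7 libraries lay below all Col-0 libraries, with a log2 fold change of -1.33 ± 0.43 (SE). Col-0 library 3 was far above its partners, and without it the value was -0.62 ± 0.18.

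RD29B, the neighbour that is known mainly as a target of abscisic acid signalling, was near the limit of detection in every group. Its highest count in any library was 14, and 1 Col-0 and 1 ful-1 library had 0 counts. A count of 0 allows up to 3 counts. Means were 0.323 ± 0.0588 CPM in Ler, 0.215 ± 0.198 in ful-1, 0.0280 ± 0.0259 in Col-0 and 0.127 ± 0.0926 in ful-7 (SD, n = 3). At this depth no difference between ful-1 and Ler pistils was detectable, with a log2 fold change of -0.36 ± 0.66 (SE). Without ful-1 library 3 the value was -0.08 ± 0.38. RD29A thus took 91.2% to 100% of the counts of its pair in each of the 12 libraries.

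**Figure D1:**
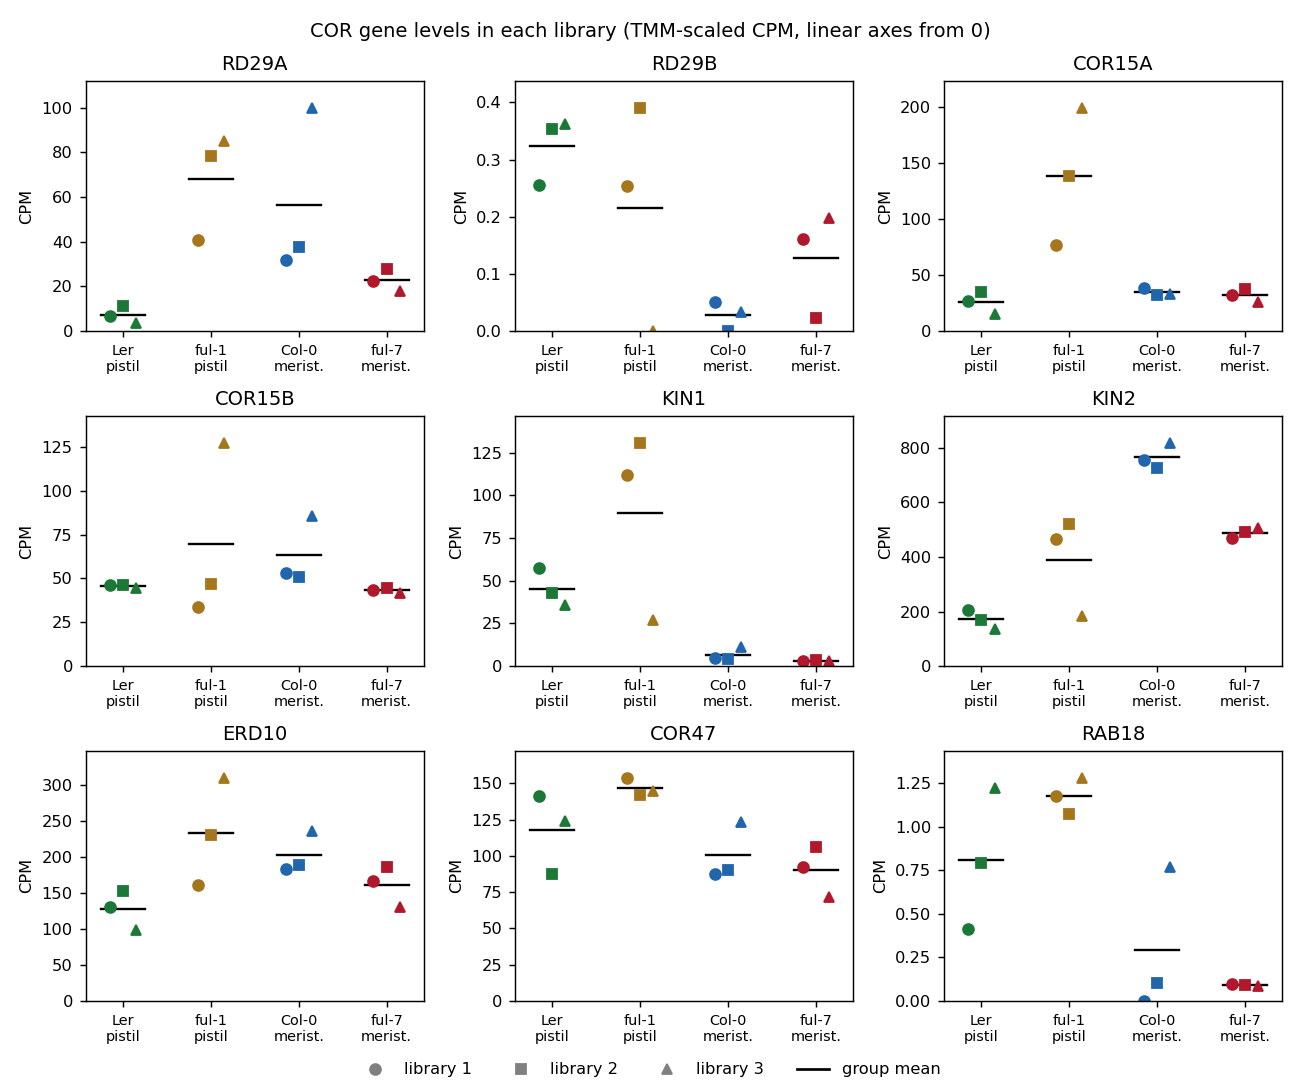
Levels of the 9 COR genes in each library, as TMM-scaled CPM on linear axes that start at 0. Points are libraries 1 to 3 of Ler and ful-1 pistils and of Col-0 and ful-7 meristems, and black lines are group means. RD29A and COR15A lie higher in all 3 ful-1 pistil libraries than in all 3 Ler libraries, and the Col-0 meristem library 3 is the highest of its group for RD29A, COR15B and KIN1.

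COR15A encodes a chloroplast protein that stabilises membranes during freezing. Its Ler pistil libraries stood at 27.2, 35.0 and 15.5 CPM and its ful-1 libraries at 76.7, 137.8 and 198.9 CPM. The groups did not overlap, and the ratio of the means was 5.32. The log2 fold change was 2.51 ± 0.52 (SE), or 2.02 ± 0.38 without ful-1 library 3, which had the highest level. Meristem levels were close together, at 38.2, 32.6 and 32.9 CPM in Col-0 and 32.0, 37.5 and 26.1 CPM in ful-7. The groups overlapped, with a log2 fold change of -0.13 ± 0.14 (SE), or -0.16 ± 0.16 without Col-0 library 3.

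COR15B, its near copy, did not follow COR15A in pistils. Ler libraries stood at 46.2, 46.3 and 44.8 CPM, and ful-1 libraries at 34.0, 47.0 and 127.5 CPM. The groups overlapped. The log2 fold change of 0.73 ± 0.57 (SE) rested on ful-1 library 3 and was -0.21 ± 0.15 without it. In meristems COR15B stood at 53.2, 50.6 and 85.8 CPM in Col-0 and 43.3, 44.4 and 41.8 CPM in ful-7, with all ful-7 libraries below all Col-0 libraries. The log2 fold change there was -0.57 ± 0.20 (SE), and -0.28 ± 0.07 without Col-0 library 3. COR15B overlaps AT2G42520 on the opposite strand over 29.5% of its exonic length, and the counts do not separate strands, so some of its reads may belong to that gene. Counts of AT2G42520 were 0.528 to 1.31 times those of COR15B in 11 libraries and 0.153 times in ful-1 pistil library 3.

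The share of the pair's counts that COR15A took was 25.6% to 43% in Ler pistils, 60.9% to 74.6% in ful-1 pistils, 27.7% to 41.8% in Col-0 meristems and 38.4% to 45.8% in ful-7 meristems. COR15A held the larger share in all 3 ful-1 pistil libraries, library 3 included, and the smaller share in the other 9 libraries. A library's scaling cancels in such a share.

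**Figure D2:**
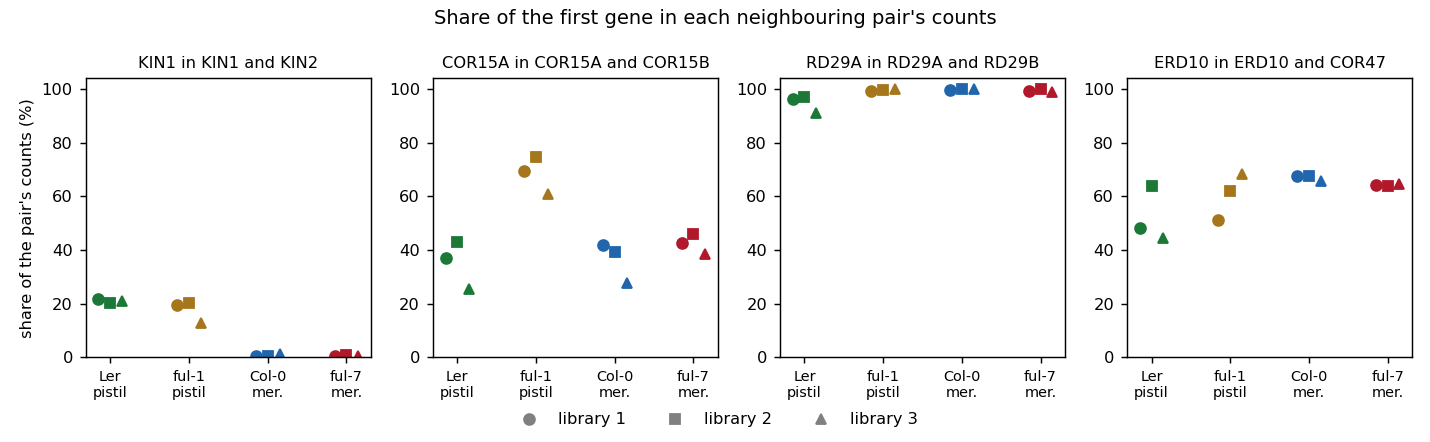
Share of the first-named gene in the summed counts of its neighbouring pair, in percent, for each library of the 4 groups. COR15A took 60.9% to 74.6% of its pair in ful-1 pistils and at most 45.8% in the other groups. KIN1 took 12.7% to 21.8% in pistils and at most 1.31% in meristems.

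KIN1 and KIN2 encode small alanine-rich proteins induced by cold and abscisic acid. KIN1 stood at 57.3, 43.0 and 35.7 CPM in Ler pistils and at 112, 131 and 26.7 CPM in ful-1 pistils. KIN2 stood at 206, 170.5 and 136 CPM in Ler and at 466, 520.3 and 184 CPM in ful-1. In both genes ful-1 libraries 1 and 2 lay above every Ler library and library 3 lay within or below the Ler range. The log2 fold change of KIN1 was 0.98 ± 0.52 (SE) with ful-1 library 3 and 1.39 ± 0.20 without it. For KIN2 it was 1.20 ± 0.38 and 1.49 ± 0.17.

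In meristems KIN2 stood at 755, 727 and 819 CPM in Col-0 and at 470.4, 491 and 506 CPM in ful-7. The ful-7 libraries lay below all Col-0 libraries with little spread in either group, and the log2 fold change was -0.66 ± 0.09 (SE), or -0.61 ± 0.07 without Col-0 library 3. KIN1 was scarce there, at 4.85, 3.96 and 10.9 CPM in Col-0 and 2.76, 3.397 and 2.85 CPM in ful-7. Its log2 fold change was -1.16 ± 0.37 (SE), and -0.57 ± 0.18 without Col-0 library 3.

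The balance within this pair differed between the tissues. KIN1 took 20.2% to 21.8% of the pair's counts in Ler pistils and 12.7% to 20.1% in ful-1 pistils, but 0.542% to 1.31% in Col-0 and 0.561% to 0.687% in ful-7 meristems. The genes share a stretch of 505 bases at 92.1% identity, and the handling of reads with several positions is not given in the sources used here, so the split between them is uncertain. Ecotype differs along with tissue, and how Ler reads of either gene map to a Col-0 genome was not tested. The summed counts of both genes do not depend on how reads are split between them. Reads dropped, counted for both genes or lost in mapping could still alter the sum, which was not tested. The log2 fold change of the sum was 1.16 ± 0.41 (SE) in ful-1 pistils and -0.67 ± 0.10 in ful-7 meristems.

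COR47 and ERD10 encode acidic dehydrins, proteins that stay unfolded in water and bind membranes. ERD10 stood at 131, 154 and 99.3 CPM in Ler pistils and at 161, 231 and 311 CPM in ful-1 pistils. Each ful-1 library was above each Ler library, and the log2 fold change was 0.96 ± 0.37 (SE), or 0.58 ± 0.23 without ful-1 library 3. COR47 stood at 142, 87.5 and 124 CPM in Ler and at 154, 142 and 145 CPM in ful-1. The ful-1 libraries again lay above the Ler libraries, by a margin under 1 CPM, with a log2 fold change of 0.38 ± 0.25 (SE). Without ful-1 library 3 the value was 0.29 ± 0.20. In meristems the groups overlapped for both. The log2 fold change was -0.35 ± 0.16 (SE) for ERD10 and -0.17 ± 0.18 for COR47. Without Col-0 library 3 these were -0.21 ± 0.14 and 0.01 ± 0.16, so the direction of COR47 turned.

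RAB18, a dehydrin induced by abscisic acid, was scarce in all groups. Ler pistils held 0.416, 0.794 and 1.23 CPM, and ful-1 pistils 1.18, 1.07 and 1.28 CPM. These groups overlapped, with a log2 fold change of 0.57 ± 0.46 (SE), or 0.43 ± 0.43 without ful-1 library 3. Meristem libraries held 0 to 0.771 CPM, the highest being Col-0 library 3 with 47 counts.

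**Figure D3:**
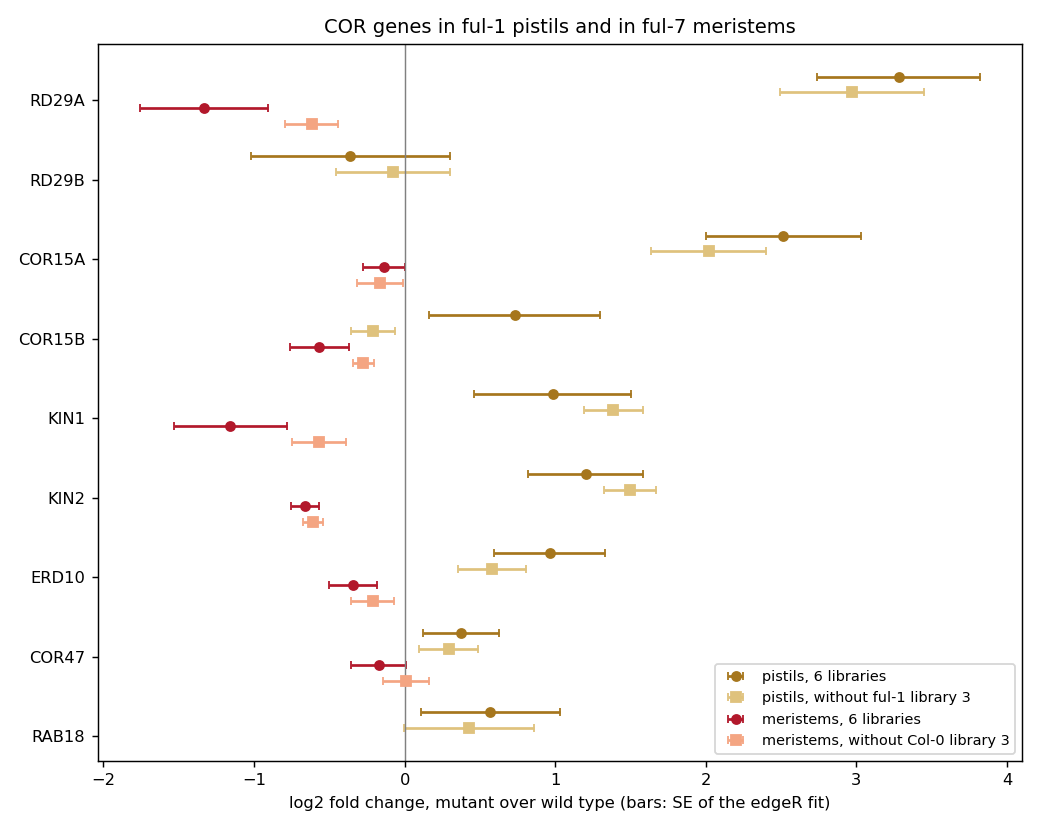
Fitted log2 fold change of each COR gene, mutant over wild type, with SE bars, for ful-1 pistils and ful-7 meristems. Circles are the fits of all 6 libraries and squares the fits without ful-1 library 3 or Col-0 library 3. Pistil values are above 0 for all genes but RD29B and, in the fit of 5 libraries, COR15B, while meristem values with all 6 libraries are below 0 for all 7 genes fitted. RD29B and RAB18 have too few counts in meristems for a fit.

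Counts past the threshold (edgeR quasi-likelihood test, Benjamini-Hochberg adjusted p of at most 0.05) are descriptions here, because the set was chosen with results of these libraries known. In pistils all 9 passed the filter on low counts and 0 passed the threshold over 6 libraries, where 0.186% of 23674 genes did. Without ful-1 library 3, RD29A, COR15A, KIN1 and KIN2 passed as higher in ful-1, 4 of 9, where 5.12% of 24068 genes passed in that direction. The median log2 fold change of the 9 was 0.96 over 6 libraries and 0.58 over 5, beside 0.01 for all genes tested in either fit. Libraries of ful-1 and Ler did not overlap for 4 of 9 genes, all higher in ful-1, as for 12.7% of all genes tested in that direction. Without ful-1 library 3 this held for 6 of 9, as for 29.7% of genes. In meristems 7 of the 9 passed the filter. KIN2 alone passed the threshold, as lower in ful-7, with and without Col-0 library 3, where 0.0929% and 0.136% of genes passed in that direction. Libraries did not overlap for RD29A, COR15B, KIN1 and KIN2, all lower in ful-7, as for 10.1% of genes.

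The difference between the effects in the tissues was taken as a contrast over all 12 libraries. RD29A had a difference of 4.55 ± 0.73 (SE, log2) and COR15A one of 2.57 ± 0.50, both higher in pistils, and these 2 of 9 passed where 0.191% of 25154 genes did in that direction. Without ful-1 pistil library 3 and Col-0 meristem library 3, KIN1 at 1.95 ± 0.27 and KIN2 at 2.09 ± 0.20 passed too, making 4 of 9, where 3.74% of genes passed in that direction.

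The wild types differ in tissue and ecotype together. RD29A was at 7.41 ± 3.87 CPM in Ler pistils and 56.4 ± 37.8 CPM in Col-0 meristems, and KIN2 at 171.0 ± 34.8 and 767 ± 46.8 CPM (SD, n = 3). Both were lower in pistils, by log2 fold changes of -2.90 ± 0.57 and -2.12 ± 0.17 (SE), and without Col-0 library 3 that of RD29A was -2.17 ± 0.39. KIN1 was higher in pistils, by 2.81 ± 0.40, subject to the uncertain split with KIN2, since the summed pair had -1.80 ± 0.17. These genes and ERD10, at -0.62 ± 0.18, were the 4 of 8 tested that passed, where 60.9% of 24009 genes passed in either direction. COR15A, COR15B, COR47 and RAB18 did not pass. Without Col-0 library 3, all 9 were tested and 6 passed, where 64.3% of 24412 genes did in either direction. RAB18, at 4.20 ± 0.98 (SE), and RD29B, at 3.34 ± 0.76, then passed as higher in pistils, both with few counts.

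Per length (CPM per kilobase of exon), KIN2 was the highest of the 9 in every group, at 228 in Ler, 520.4 in ful-1, 1023 in Col-0 and 652 in ful-7, and all its libraries lay above all those of the next gene. ERD10 was next in each group, at 78.9, 144, 125 and 99.3. In Ler pistils the order went on with KIN1 at 54.7 and COR47 at 50.8, which overlapped ERD10 or each other, then COR15B at 28.9, COR15A at 16.3 and RD29A at 2.78, each clear of the next. In ful-1 pistils COR15A, at 87.0, stood above COR15B, at 43.9, but neighbours from ERD10 to RD29A overlapped. In Col-0 meristems COR47 and COR15B, at 43.3 and 39.9, overlapped. There COR15A, RD29A and KIN1 followed in turn at 21.8, 21.2 and 7.93; RD29A overlapped both of the others, while COR15B was clear of COR15A and KIN1 of RAB18. In ful-7 meristems the order was the same and each gene from KIN2 to KIN1 was clear of the next. RAB18 and RD29B were the lowest in all 4 groups.

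The other genes of the pathway were counted on 5 lists with 85 genes. These lists were also drawn up with earlier results of these data known, so their shares and p values are descriptions. In pistils 0 of 70 tested passed over 6 libraries in edgeR, with 7 (10%) at an unadjusted p under 0.05, beside 10.3% of all genes, and 5 called by DESeq2, which called 927 genes in all. Without ful-1 library 3, 6 were higher and 4 lower of 73, a share of 13.7% beside 13.4% of all genes in either direction. The abscisic acid list held 4 of the 6, and 0 of its 16 tested genes were lower. In that fit 5.12% of all genes were higher and 8.26% lower. Over 6 libraries 0 of 15 tested on this list passed, and the list is named here after its values were seen. OST1, the SnRK2 kinase, stood at 10.4, 9.70 and 8.94 CPM in Ler and 18.1, 24.4 and 30.5 CPM in ful-1, and rose with a log2 fold change of 1.102 ± 0.15 (SE, edgeR adjusted p = 0.0090). Over 6 libraries its value was 1.41 ± 0.30, with an adjusted p of 0.21. Guard cells are a cell type where OST1 is known to act, and their 7 markers did not move together. Without library 3, KAT1, a potassium channel, and MYB60 rose by 2.31 ± 0.32 and 0.74 ± 0.18 (edgeR adjusted p = 0.0088 and 0.046), TGG1, TGG2 and FAMA were lower (log2 fold changes of -3.04, -3.12 and -2.74, adjusted p = 0.0017, 0.0019 and 0.0020), and SLAC1 and GORK did not pass. Over 6 libraries FAMA and TGG2 alone passed, both as lower. The sum of the 7 was 1880 to 2490 CPM in Ler and 67.7 to 342 CPM in ful-1, of which TGG1, a myrosinase, made 1824 to 2418 and 32.9 to 295. The part of these cells in the OST1 value was not tested.

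ABF3, a bZIP factor downstream of such kinases, rose by 0.91 ± 0.08 (edgeR adjusted p = 0.0030), from 16.9 to 18.5 CPM in Ler to 32.5 and 35.1 CPM in the remaining ful-1 libraries. ABF2 rose by 0.38 ± 0.07 (adjusted p = 0.026, edgeR), and PYL2, a receptor with at most 23 counts in a pistil library, by 2.01 ± 0.42 (0.032). These ABF3, ABF2 and PYL2 values are from the fit without ful-1 library 3. That library held 8.28 CPM of ABF2, under the 20.2 to 20.5 CPM of Ler, and 0 counts of PYL2. Over 6 libraries ABF2 was at 0.04 ± 0.39 (edgeR adjusted p = 0.96), ABF3 at 0.79 ± 0.20 (0.30), and PYL2 had too few counts for a fit. ABI5, the bZIP factor of seed maturation, was at 54.6, 57.8 and 59.0 CPM in Ler and 83.7, 70.1 and 188.0 CPM in ful-1. All its ful-1 libraries were higher, but the edgeR adjusted p was 0.49 over 6 libraries and 0.052 over 5. The 9 maturing seed markers summed to at most 2.86 CPM in any library.

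The CBF genes were scarce in both tissues. CBF1 stood at 0.0882 to 0.224 CPM in Ler and 0.197 to 0.358 in ful-1, CBF2 at 0.306 to 0.411 and 0.488 to 0.888, and CBF3 at 0.445 to 2.03 and 0.0986 to 4.23. In meristems CBF1 stood at 0.461 to 1.286 CPM in Col-0 and 0.484 to 0.872 in ful-7. CBF2 was at 0.295 to 0.735 and 0.876 to 1.475 there, and CBF3 at 0.443 to 3.492 and 2.458 to 2.905. None of the 3 passed in any of the comparisons within a tissue. Without ful-1 library 3, CBF3 had a log2 fold change of 1.68 ± 0.55 (edgeR adjusted p = 0.098) and CBF1 one of 1.14 ± 0.45 (0.15). The library left out held the 0.0986 CPM of CBF3, under every Ler library. DREB2A, of the drought branch, was at 3.88 to 7.63 CPM in Ler and 4.39 to 6.20 in ful-1, and 0 of 5 genes on its list passed. On the CBF list ICE2, a bHLH activator of CBF genes, and PIF4, a bHLH factor of warm growth, fell by 1.08 ± 0.10 and 1.33 ± 0.18 (edgeR adjusted p = 0.0029 and 0.0080, without library 3). Over 6 libraries ICE2 was at -0.56 ± 0.38 and PIF4 at -1.70 ± 0.50 (edgeR adjusted p = 0.56 and 0.34). DREB2B had the lowest p of the drought branch there, at 0.66 ± 0.32 (0.50), and was at 0.34 ± 0.17 without library 3.

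Among the other targets, P5CS1, the enzyme that limits proline synthesis under drought, was lower in all ful-1 libraries. It stood at 126, 119.0 and 119.0 CPM in Ler and 40.9, 43.8 and 25.2 CPM in ful-1. It fell by 1.56 ± 0.08 without library 3 (edgeR adjusted p = 0.0015), and its value was -1.70 ± 0.22 over 6 libraries (0.069). RD22 and HVA22D, targets of abscisic acid, rose by 0.77 ± 0.14 and 0.50 ± 0.12 (edgeR adjusted p = 0.024 and 0.049, without library 3), and over 6 libraries were at 0.70 ± 0.23 and 0.56 ± 0.19 (0.40 and 0.41). Of the dehydrins outside the COR set, ERD14, the close relative of ERD10, fell by 0.54 ± 0.10 without library 3 (edgeR adjusted p = 0.022) and was at -0.29 ± 0.26 over 6 libraries (0.65), while LTI30 held at most 18 counts in a pistil library. AT4G38410 had the lowest p of that list over 6 libraries, at 3.00 ± 1.20 (edgeR adjusted p = 0.48), with 16.96 CPM in ful-1 library 3 and at most 2.94 CPM in the other pistil libraries. Without that library its log2 fold change was 1.003 ± 0.65. RD26, a NAC factor induced by drought, was at 4.88 to 8.82 CPM in Ler and 5.47 to 11.1 in ful-1, with a log2 fold change of 0.33 ± 0.40 (edgeR adjusted p = 0.74).

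**Figure D4:**
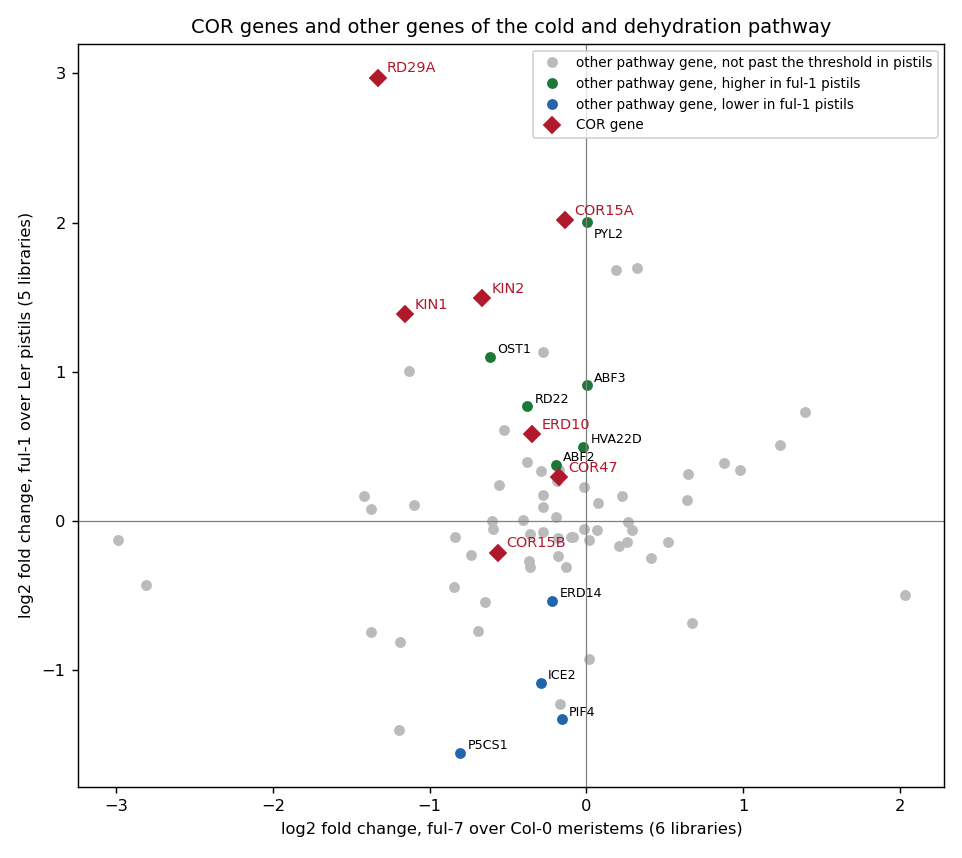
Log2 fold change in ful-1 pistils (5 libraries, without ful-1 library 3) against that in ful-7 meristems (6 libraries) for 7 COR genes (diamonds) and the other pathway genes fitted in both (circles). Green and blue circles passed the threshold in pistils, higher or lower, and none passed in meristems. RD29A, KIN1, KIN2 and OST1 lie at the upper left, higher in ful-1 pistils and lower in ful-7 meristems. For OST1 the meristem groups overlapped, at 11.5, 9.87 and 23.5 CPM in Col-0 and 10.7, 9.19 and 9.80 CPM in ful-7. Its lower value there rests on Col-0 library 3, which is kept on the meristem axis. Without that library the meristem values of RD29A and KIN1 shrank to -0.62 and -0.57. Of the COR genes KIN2 alone passed in meristems, with and without it.

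In meristems 0 of 74 pathway genes passed in edgeR, where 0.292% of all genes did. Of the 74, 25 (33.8%) were at an unadjusted p under 0.05, beside 15.1% of all genes, and 8 were among the 812 calls of DESeq2. As the lists were not drawn up independently of these data, such shares are descriptions. Without Col-0 library 3, 0 of 75 passed in edgeR, and 21 (28%) were at an unadjusted p under 0.05, beside 14.2% of all genes. The median log2 fold change of the 74 was -0.19, beside -0.02 for all 22605 genes tested. The lowest p values on the lists belonged to PYL9, an abscisic acid receptor (-0.56 ± 0.10, edgeR adjusted p = 0.10), COR413IM1, a chloroplast envelope protein (-1.1 ± 0.24, 0.16), LTI30 (-0.69 ± 0.18, 0.20), ICE2 (-0.29 ± 0.08, 0.22) and DREB2C (-1.42 ± 0.59, 0.32; -0.53 ± 0.44 without Col-0 library 3). LTI30 stood at 9.18, 9.71 and 13.5 CPM in Col-0 and 7.15, 7.22 and 5.89 CPM in ful-7. For the difference between tissues 0 of 76 passed in edgeR, where 0.751% of all genes did, with 16 (21.1%) at an unadjusted p under 0.05, beside 12.2% of all genes, and 3 called by DESeq2, which called 1236 genes in all. The lowest p values on the lists were those of OST1 (1.96 ± 0.44, edgeR adjusted p = 0.077), COR413IM1 (2.15 ± 0.72, 0.25), AT4G38410, a dehydrin (3.97 ± 1.35, 0.26), PIF4 (-1.50 ± 0.52, 0.27) and DREB2C (1.86 ± 0.76, 0.37). Without both libraries that stood apart, COR413IM1 was at 0.94 ± 0.44, AT4G38410 at 1.23 ± 0.82 and DREB2C at 0.67 ± 0.57. Without both libraries that stood apart, 4 were higher and 4 lower in pistils, where 11.6% of all genes passed, among them OST1 at 1.21 ± 0.21 and ABF3 at 1.03 ± 0.17 (edgeR adjusted p = 0.0052 and 0.0041). Between the wild types 18 of 75 were higher and 27 lower in pistils, a share of 60% beside 60.9% of all genes. LTI30, at 0.256 to 0.501 CPM in Ler pistils, fell by 4.80 ± 0.30 from the meristem level (edgeR adjusted p = 2.1e-05), and ABI5 was higher by 1.74 ± 0.09 (1.1e-05). Others with the lowest p on their lists were higher in pistils for ICE1 (1.36 ± 0.09), ICE2 (0.84 ± 0.08), DREB2C (1.84 ± 0.54) and RD20, a caleosin of lipid droplets (2.09 ± 0.16). The lower ones were the receptors PYL1 (-1.51 ± 0.19), PYL8 (-1.0 ± 0.18) and PYL9 (-0.67 ± 0.14), the factors PIF4 (-1.58 ± 0.11) and RAV1 (-2.74 ± 0.29), the targets LEA14 (-2.61 ± 0.29), HVA22D (-1.40 ± 0.16) and ERD6 (-2.66 ± 0.31), and the dehydrins HIRD11 (-0.69 ± 0.19) and ERD14 (-0.46 ± 0.15). Their edgeR adjusted p values ran from 2.1e-05 to 0.028.

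Col-0 meristem library 3 was above both partners for 6 of the 7 abundant COR genes, with a median log2 ratio of 0.47 to the mean of the others. Other genes on the lists departed with it, chosen here after their values were seen. COR27, a cold gene under clock control, was at 200.1 CPM against 12.2 and 30.7, and GRP7, a clock-controlled RNA-binding protein, at 7262 against 1917 and 2517. LHCB1.1, an antenna protein of photosynthesis, was at 67.5 CPM against 1025 and 907. The other markers of leaf photosynthesis did not all fall with it. LHCB2.1 was at 46.13 CPM against 338.2 and 346.2, and LHCB1.3 at 2938 against 5257 and 5647. RBCS1A was less reduced, at 4358 CPM against 5273 and 5607. RBCS3B was higher, at 1423 CPM against 1377 and 1266, and RCA lay between its partners. ERD5, the proline-degrading enzyme, was at 327 CPM against 1422 and 1524, and P5CS1 was at 328 against 118 and 147. The part of this library in the meristem values was measured by leaving it out, as given for each gene. What sets it apart was not tested.

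**Figure D5:**
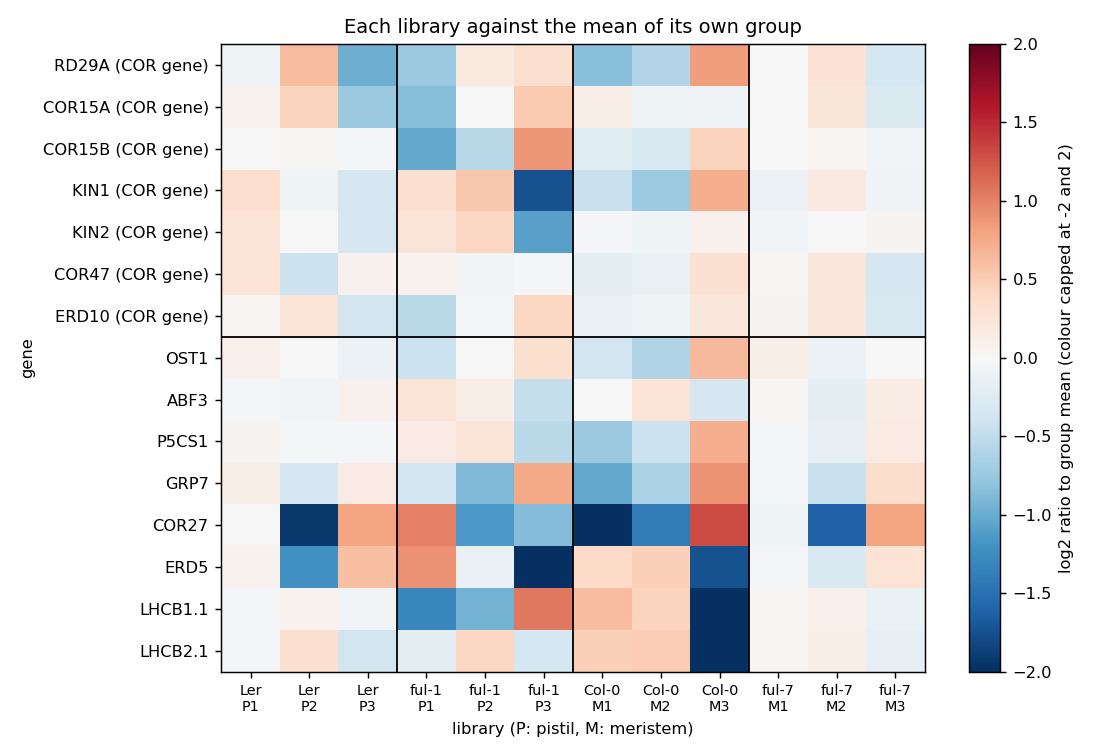
Log2 ratio of each library to the mean of its own group, for 7 COR genes (above the line) and 8 other genes of the lists. Columns are libraries 1 to 3 of each group (P, pistil, M, meristem), and colour is capped at -2 and 2. Col-0 meristem library 3 is high for most COR genes, GRP7 and COR27 and low for ERD5 and the LHCB genes, and ful-1 pistil library 3 is low for KIN1 and KIN2.

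Likeness to the COR profile (each gene scaled over the 12 libraries, then averaged) was sought among 16786 genes that averaged 5 CPM or more. The 5 highest Pearson correlations were those of AT1G28570 at 0.965, OST1 at 0.955, AT5G62760 at 0.946, AT5G56890 at 0.936 and AT5G63180 at 0.92. Tissue and depth differ together among these 12 libraries. The averaged profile was highest in the ful-1 pistils, at 0.50 to 0.96 SD units, next in Col-0 meristem library 3, at 0.48, and at most -0.19 in the other 8 libraries. AT1G28570 stood at 27.3 to 65.9 CPM in ful-1 pistils, 5.79 to 8.29 in Ler, 4.59 to 17.8 in Col-0 and 4.22 to 7.62 in ful-7. AT5G63180 stood at 39.7 to 55.3, 9.91 to 15.2, 8.45 to 16.0 and 6.43 to 9.30 CPM in the same order. In these bulk samples fewer cells of a type and less RNA per cell cannot be told apart.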

How the data were processed

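The deposited table holds raw counts per gene. Per the submitters' processing notes, the authors used STAR 2.7.0b, featureCounts 1.6.0 and TAIR10; no other setting is given in the sources used here. Libraries were stranded and read as pairs, per the labels' protocols, yet 42 of 43 pairs of genes overlapping on opposite strands (at least 90% of exonic length) had counts within 10% of each other, so counts did not separate strands. The 9 genes and all gene lists were chosen with earlier results of these data known.

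Counts were fitted in R 4.3.3 with edgeR 4.0.16 (filterByExpr, TMM, quasi-likelihood F test, Benjamini-Hochberg at 0.05), within each tissue, between the wild types, and over 12 libraries for the difference of effects. DESeq2 1.42.0, other filters and scalings, a fit of all libraries, and leaving out each library were alternatives; dropping both libraries that stood apart was added after seeing the data. The fits within each tissue and between the wild types were tried on simulated counts with less spread than the pistil libraries had. The difference of effects was not simulated. CPM used TMM factors over 12 libraries, so levels differ slightly from the fits. Beside the COR genes and FUL, named genes were, per list and comparison, the 4 called genes of lowest p (fewer where fewer were called, and the top 1 where none was), plus CBF1, CBF2, CBF3, DREB2A, ABI5, ABF3, LTI30, RD26 and the 5 most alike; genes named from fits of 5 libraries and those of Col-0 library 3 were chosen after their values were seen. Exonic lengths, promoters and neighbours came from RefSeq TAIR10.1, which matched 36632 of 36917 identifiers and may differ from the build used for counting. A count of 0 was read as up to 3 counts, for counting error only.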

Additional observations from a re-analysis of the deposited data

Results flagged for a closer look

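RD29A moved in opposite directions in the mutants. Its log2 fold change was 3.28 in ful-1 pistils, where every library lay above every Ler library, and -1.33 in ful-7 meristems, where every library lay below every Col-0 library. Neither value passed the threshold over 6 libraries. Without ful-1 library 3 the pistil value was 2.97 ± 0.48 (SE) and passed. The meristem value shrank to -0.62 ± 0.18 without Col-0 library 3 and did not pass. The opposite directions were not tested independently, because the gene was chosen with these results known, and allele, tissue and ecotype differ together.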

How the results depend on the processing

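No paired analysis was possible because the table's columns carry no replicate numbers. Among values of single COR genes, 414 of 431 stayed within their spread, 16 moved and 1 reversed: KIN1 between the wild types, at -1.80 when summed with KIN2. Spread here is the root of the summed variances of log2 levels between libraries in the groups compared. Libraries that stood apart were included in it. It is not the error of a fold change, so a value could change sign and stay within it. A change of sign counted as reversed only where the main value had passed the threshold. In pistils 44 genes passed, 927 by DESeq2 and 647 in a fit of all 12 libraries; for pathway genes these were 0, 5 and 2, and for COR genes 0, 2 and 2. In meristems 66 passed, 812 by DESeq2, 153 without a filter and 26 in the fit of 12; DESeq2 called 8 pathway and 2 COR genes, and the fit of 12 called 0 COR genes against 1. For the difference 189 passed, 1236 by DESeq2 and 2953 without both libraries that stood apart; pathway genes were 0, 3 and 8, and COR genes were 2, with 1 under DESeq2 size factors, 1 without a filter and 4 without both libraries. Leaving out 1 library at a time gave 0 to 3221 genes, 0 to 10 pathway genes and 0 to 4 COR genes in pistils, each highest without ful-1 library 3. In meristems it gave 10 to 93 genes and 0 to 1 COR genes, and for the difference 57 to 2599, 0 to 6 and 0 to 4. Between the wild types every setting stayed within 1.5 times the main counts. COR15B in pistils, with no call, changed sign without ful-1 library 3 (-0.21), and COR47 in meristems without Col-0 library 3 (0.01). RAB18 in the difference between tissues, also with no call, went from 2.24 to -0.44 without Col-0 library 3. Depth limits RD29B and RAB18, and CBF1 to CBF3, most.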
